A study of Mus musculus with 24 samples.

Results

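To see what the loss of the transcription factor NFIL3 does to gene expression in dorsal root ganglia (DRGs) 5 days after nerve injury, *Nfil3* knockout (KO) and wildtype (WT) samples of that time point were compared. The members were the 4 samples titled as KO and the 4 titled as WT at day 5, 8 of the 24 samples of the series, each read from 1 dye channel of its array, with all 41174 non-control probes (27398 gene names). The sciatic nerve was lesioned and its ends were coaptated, and L4 and L5 DRGs were collected from adult male C57BL/6J mice, while the other groups were DRGs at day 2 and control DRGs of the non-injured side, 4 samples of each per genotype. KO animals carried a global deletion made by crossing *Nfil3* lox mice with mice that express Cre recombinase in the germ line, so that the deletion was not limited to neurons or to the time of injury, and WT animals were littermates. Each of the 12 Agilent arrays carried a Cy3 and a Cy5 sample, and at day 5 each genotype had 2 samples per dye. The samples are described as independent replicates, and whether animals were pooled is not given in the sources used here. The label calls the tissue DRG neurons, and all 25 sensory neuron markers on the array were measured. So were all 21 genes of the macrophage list, all 13 Schwann cell and all 14 satellite glia markers. The values are thus those of whole ganglia.

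NFIL3, also known as E4BP4, is a basic leucine zipper (bZIP) protein that mostly represses transcription. It binds sites around the cores TTACGTAA and TTATGTAA, which it shares with activators of the PAR family (*Dbp*, *Tef* and *Hlf*) and with CREB and C/EBP proteins, and it is known for roles in the circadian clock and in the development of natural killer (NK) and other innate lymphoid cells. After peripheral nerve injury sensory neurons switch on a program of regeneration-associated genes, while macrophages enter the ganglion and satellite glia and Schwann cells respond.

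In each sample between 62.5% and 71.2% of probes were well above background. A probe is called measured here if it was well above background in all 4 KO or in all 4 WT samples of day 5, which held for 25883 probes, and a gene is represented in lists by its brightest probe, which was measured for 17014 genes. KO replicates 1 and 3 and WT replicates 1 and 3 lay on slide 1, the other KO samples on slide 2 and the other WT samples on slide 3, so that slide 1 alone held both genotypes. Slide 3 stood apart in a set of probes. For 577 measured probes all 8 samples of that slide, of whichever genotype and time, were above all 16 others, and for 40 they were all below. All values are log2 intensities, and differences are KO minus WT in log2 units.

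First, the deleted gene was examined. The brighter *Nfil3* probe, at chr13:53062585-53062644 in mm9, read 10.64, 10.95, 10.98 and 11.09 in WT replicates 1 to 4 and 5.81, 3.40, 5.66 and 2.82 in KO replicates 1 to 4. The lowest WT sample was thus far above the highest KO sample, and only KO replicates 1 and 3 were well above background. The difference was -6.49 (SE 0.81, limma adjusted p = 0.00259), and the second probe, at chr13:53062869-53062928, differed by -5.86 (SE 0.56, limma adjusted p = 6.61e-05). As 2 of the KO samples were not well above background, the size depends on the background correction, and the brighter probe differed by -4.73 without correction and by -4.36 with normexp, passing in both. Whether the probes lie inside the deleted region is not given in the sources used here. In WT the second probe rose by 2.43 from control to day 5 (limma adjusted p = 0.00523), the change of the brighter one was 2.26 (limma adjusted p = 0.076), and in KO neither probe passed, with changes of -0.21 and -0.25. Without KO control replicate 4 the KO changes turned to 0.49 and 0.72, and neither passed.

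The remaining *Nfil3* signal in KO samples went with the sample in the other channel of the array. KO replicates 1 and 3, at 5.81 and 5.66, shared their arrays with WT samples, and KO replicates 2 and 4, at 3.40 and 2.82, shared theirs with KO samples. The same was seen in the KO samples of day 2, at 5.30 and 6.23 with a WT partner against 4.14 and 3.03 with a KO partner. In control DRGs KO replicates 2 and 3 read 3.80 and 4.37 with a WT partner and replicate 1 read 2.94 with a KO partner. KO control replicate 4 was the exception, at 7.59 beside KO day 5 replicate 2. Its title calls it a control sample and another label gives day 5, and it was kept as a control. In the lesion-induced genes read here it was below the KO day 5 samples. *Atf3* read 9.66 against 13.40 to 13.90, *Gap43* 9.57 against 11.54 to 11.64, and *Timp1* 8.93 against 10.36 to 10.58. It was also the highest KO control in *Atf3* and *Timp1*, where the others read 7.46 to 9.04 and 8.03 to 8.84. *Sprr1a* read 11.43 in it and 5.48 to 8.15 in the other KO controls, while its *Gap43* lay among theirs (9.24 to 9.81). For the brighter *Nfil3* probe the genotype difference was -5.08 within slide 1 and -6.41 with slide as a block. The part of the array partner in this signal was not tested.

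Beyond *Nfil3* few genes differed. Of all probes 5 passed the adjusted threshold, or 0.0121%, and they belonged to 4 genes. One was higher in KO, *Auh*, an RNA-binding enzyme of mitochondrial leucine breakdown, and 3 were lower, namely *Nfil3* with 2 probes, the myeloid cytokine subunit gene *Il12b* and the apolipoprotein gene *Apob*. At an unadjusted p under 0.05 there were 996 genes, with 573 higher and 424 lower (1 gene had probes in both directions). These were 1018 probes, or 2.47% of all probes. Among measured probes 449 were called at that level, or 1.73%, and over the brightest measured probe of each gene the share was 1.52%, with 1.01% higher and 0.511% lower in KO. The median standard error of measured probes was 0.15, and from the 5th to the 95th percentile their differences ran from -0.29 to 0.27.

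*Il12b* and *Apob* passed on signals near the background. *Il12b* read 4.53, 4.09, 4.52 and 4.01 in WT replicates 1 to 4 and 3.21, 2.74, 3.02 and 3.13 in KO, and was well above background in 1 of the 8 samples. *Apob* read 3.73, 3.61, 4.16 and 3.69 in WT and 2.28, 2.47, 2.14 and 1.77 in KO, and was well above background in none. The groups overlapped for neither gene, but no fold change can be read from signals at this level. The other 4 *Apob* probes differed by -0.33 to 0.81, and none passed. Without background correction the differences were -0.26 (limma adjusted p = 0.0868) for *Il12b* and -0.11 (limma adjusted p = 1.00) for *Apob*.

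*Auh*, the gene that passed in the other direction, lies beside *Nfil3*, 0.13 Mb away at chr13:52930653-52930712. Its brightest probe read 12.72, 12.45, 12.83 and 12.46 in WT replicates 1 to 4 and 13.19, 13.23, 13.33 and 13.25 in KO replicates 1 to 4. All KO samples lay above all WT samples, and the mean was 13.25 ± 0.06 (SD, n = 4) against 12.62 ± 0.19 (SD, n = 4), a difference of 0.63 (SE 0.10, 1.55-fold, limma adjusted p = 0.0242). At day 2 the difference was of the same size, 0.65 (limma adjusted p = 0.0238), while in control DRGs it was 0.19 (unadjusted p = 0.0623), and the test of day 5 against control gave 0.44 (unadjusted p = 0.00492, limma adjusted p = 1.00). *Auh* differed by 0.59 with slide as a block (limma adjusted p = 0.0166) and by 0.48 within slide 1 (limma adjusted p = 1.00). It also missed the threshold with median foreground (limma adjusted p = 0.078), with processed signals (limma adjusted p = 0.0532) and with the day 5 samples alone (limma adjusted p = 0.74). With 1 day 5 sample left out the difference stayed between 0.58 and 0.70, but it passed only without WT replicate 3. The other *Auh* probes did not show it. The probe at chr13:53003525-53003584 differed by -0.60 (SE 0.67) and the one at chr13:53008226-53008285 by -0.26 (SE 0.22), and neither passed. The error of the first was too large to judge a difference of 0.63.

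The other genes of the locus gave small differences. Within 1 Mb of *Nfil3* the array annotation placed 10 genes, 5 of them measured, and *Auh* was the only one to pass. *Ror2*, a receptor tyrosine kinase for Wnt ligands, differed by -0.04 (95% interval -0.36 to 0.28). *Sptlc1*, a subunit of the first enzyme of sphingolipid synthesis, differed by -0.04 (-0.35 to 0.27). *Syk*, a kinase of immune receptor signaling, differed by -0.09 (-0.62 to 0.44) and *E130119H09Rik* by 0.12 (-0.18 to 0.43). Within 5 Mb there were 91 measured genes of 135, with a median of -0.01. By their brightest probes none but *Auh* had an unadjusted p under 0.05. A dimmer probe of *Ptpdc1* differed by 0.35 (limma unadjusted p = 0.0438), beside 0.08 for the brightest.

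**Figure D1:**
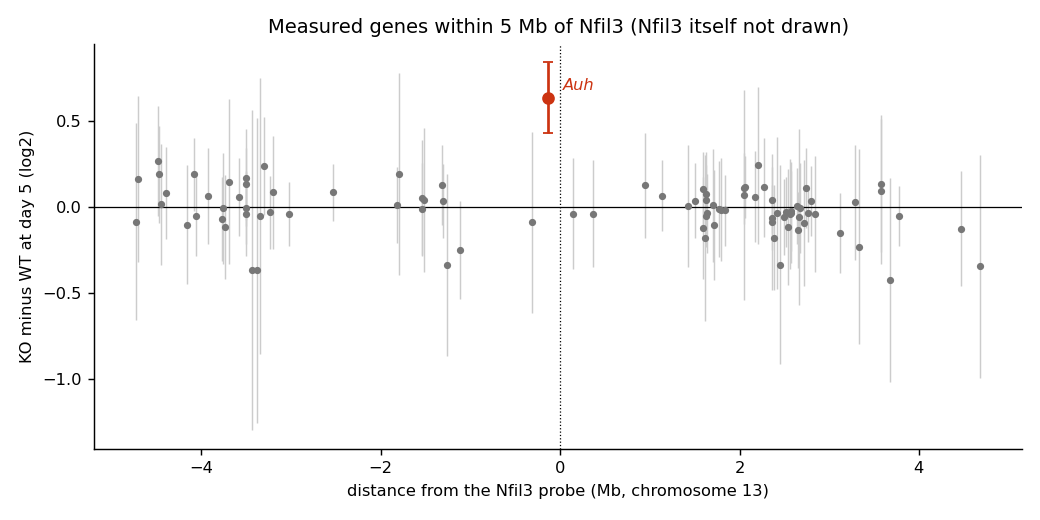
KO minus WT at day 5 (log2, y axis) of the measured genes against the distance of their brightest probe from the *Nfil3* probe on chromosome 13 (Mb, x axis), with 95% intervals as bars. *Auh*, in red, has an interval (0.43 to 0.84) clear of 0, and it overlaps the intervals of several other genes.

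Next, the measured genes with the smallest p were examined, 8 in each direction. Besides *Auh* the higher ones were the transcripts *AK141962* (0.59), *B230214O09Rik* (0.53), *A630006J10Rik* (0.55), *A430093F15Rik* (0.61) and *AK038440* (0.62), together with *Fryl* (0.58) and *Ankrd24* (0.50), which have named protein products. None of these passed, with limma adjusted p from 0.882 to 1.00. *B230214O09Rik*, for example, read 5.12, 5.03, 5.09 and 5.02 in WT and 5.57, 5.62, 5.51 and 5.66 in KO, with no overlap. Brighter probes gave smaller differences for *Fryl* (0.33) and for *Ankrd24* (0.07).

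Among measured genes lower in KO, the smallest p after *Nfil3* was that of *Ccl17*, a chemokine of dendritic cells and macrophages that attracts T cells. It read 6.58, 6.82, 8.14 and 5.85 in WT replicates 1 to 4 and 4.60, 4.95, 5.45 and 4.59 in KO replicates 1 to 4. No KO sample reached the lowest WT sample, and the difference was -1.95 (SE 0.44, 3.86-fold, limma adjusted p = 0.882), -2.34 within slide 1 and -2.22 with slide as a block. Background correction set its size, which was -1.09 without any correction and -0.97 with normexp. In such bulk samples fewer cells of a type and less RNA per cell cannot be told apart.

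*Ccl21a*, a chemokine of lymphoid stroma and lymphatic vessels, read 9.59, 9.26, 8.56 and 9.23 in WT and 7.84, 8.66, 8.09 and 8.72 in KO, a difference of -0.84 (SE 0.25). *Dio2*, the deiodinase that makes active thyroid hormone, read 6.62, 6.04, 5.52 and 6.62 in WT and 5.03, 5.80, 4.93 and 4.13 in KO, a difference of -1.23 (SE 0.38). WT replicate 3 was the lowest WT sample of both genes and lay below the highest KO sample. *Adamts12*, a secreted metalloprotease, differed by -0.71 and *Sepsecs*, an enzyme of selenocysteine synthesis, by -0.67, and brighter probes of these genes differed by -0.15 and -0.10. *Fam150b* differed by -0.64, and a probe without a gene name whose position overlaps the *Fam150b* probe on chromosome 12 differed by -0.67. None of these passed, with a limma adjusted p of 1.00 for each.

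**Figure D2:**
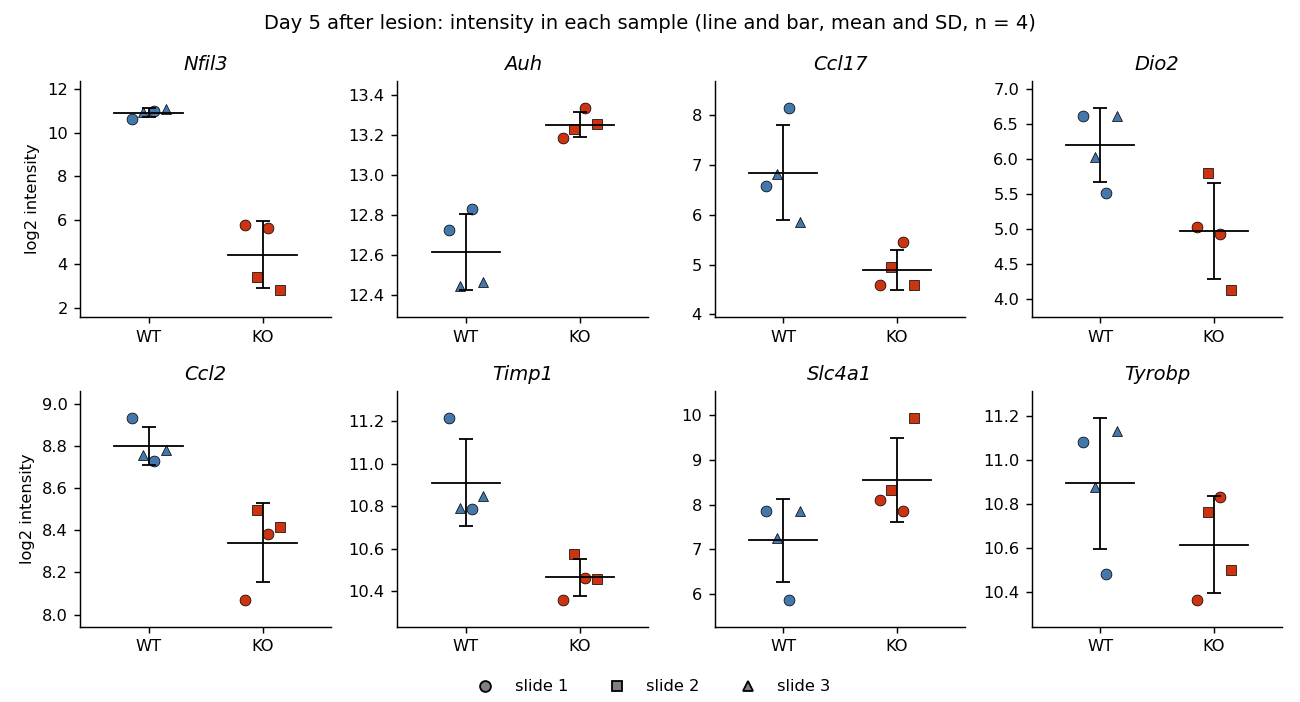
Log2 intensity (y axis) of 8 genes in the 4 WT and 4 KO samples of day 5, with the slide shown by the symbol and mean and SD as line and bars. WT and KO are apart for *Nfil3*, *Auh*, *Ccl17*, *Ccl2*, *Timp1* and *Slc4a1* and overlap for *Dio2* and *Tyrobp*, and of these genes *Nfil3* and *Auh* passed.

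Differences at the other times, whose samples enter the choice of these 16 genes only through the error of the fit, had the same sign for 9 of them at day 2, 3 with an unadjusted p under 0.05, and for 11 in control DRGs, again 3 with such a p. Over all measured probes 2.29% had such a p at day 2 and 0.645% in control DRGs. The genes that reached it were *Nfil3*, *Auh* and *AK141962* at day 2, and *Nfil3*, *Fryl* and *A630006J10Rik* in control DRGs. In the opposite direction, *Fam150b* and the probe that overlaps it were higher in KO at day 2, by 0.42 and 0.41, and *Adamts12* was higher in control DRGs, by 0.46, with unadjusted p from 0.0178 to 0.04. *Ccl17* differed by -0.11 at day 2 and by -0.45 in control DRGs. The difference between day 5 and control holds the day 5 values by which these genes were chosen, so it is a description for them. There 11 of 16 had an unadjusted p under 0.05, where 0.487% of measured probes did. A high share follows from the choice and is no independent evidence.

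The question behind the study was whether NFIL3 holds back regeneration-associated genes after injury. Of 32 such genes 31 were on the array and 29 were measured. In WT 26 rose from control to day 5 and in KO 27 rose, including the 26 of WT, where 10.1% of all measured genes rose in WT and 9.48% in KO. KO minus WT at day 5 passed for none of the 29, with 10 higher and 19 lower and a median of -0.01, beside 0.02 for all measured genes. For 25 of them the 95% interval of the difference lay within 1 log2 unit of 0.

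*Gap43*, a growth cone protein, read 11.59, 11.86, 11.64 and 11.69 in WT replicates 1 to 4 and 11.56, 11.54, 11.64 and 11.55 in KO replicates 1 to 4. The groups overlapped, and the difference was -0.12 (95% interval -0.51 to 0.26), after a rise of 2.08 in WT and 2.05 in KO. *Arg1*, the arginase that feeds polyamine synthesis, read 5.19, 4.84, 5.23 and 4.52 in WT and 5.23, 5.34, 5.60 and 5.20 in KO. It differed by 0.40 (95% interval -0.15 to 0.94). Its rise was 1.23 in KO (limma adjusted p = 0.00345) and 0.71 in WT (limma adjusted p = 0.0873), and these rises differed by 0.52 (unadjusted p = 0.179), which did not pass.

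The strongest lesion markers overlapped between genotypes, with wide intervals, as the fit takes 1 error per probe from all 24 samples. The day 5 samples themselves lay close together. The SD (n = 4) of *Atf3* was 0.23 in KO and 0.08 in WT, and that of *Sprr1a* 0.26 and 0.25. In control DRGs *Sprr1a* read from 5.48 to 11.68, and the level went with the sample in the other channel of the array. It read 5.48 to 6.12 beside another control sample and 8.15 to 11.68 beside a lesioned one. *Atf3* read 7.25 to 7.69 and 9.04 to 9.98 in the same control samples. The part of the array partner in the rises of these genes was not tested. *Atf3*, a stress-induced bZIP factor, rose by 5.30 in WT and 5.32 in KO, and differed by -0.12 (95% interval -1.16 to 0.93). *Sprr1a*, a small proline-rich protein of injured neurons, rose by 7.24 in WT and 7.78 in KO, and differed by -0.01 (95% interval -2.33 to 2.31).

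*Timp1*, an inhibitor of metalloproteases, had the smallest p of the list. It read 11.22, 10.79, 10.79 and 10.85 in WT and 10.36, 10.58, 10.46 and 10.46 in KO. All KO samples were below all WT samples, with a difference of -0.45 (SE 0.20, limma adjusted p = 1.00) and of -0.61 for a second probe, and it rose in both genotypes, by 2.58 in WT and 1.80 in KO. The neuropeptide gene *Gal* (-0.32) also had groups that did not overlap. These 2 of 29 stand beside 2.64% of all measured genes. *Klf6*, a zinc finger factor, differed by 0.31.

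**Figure D3:**
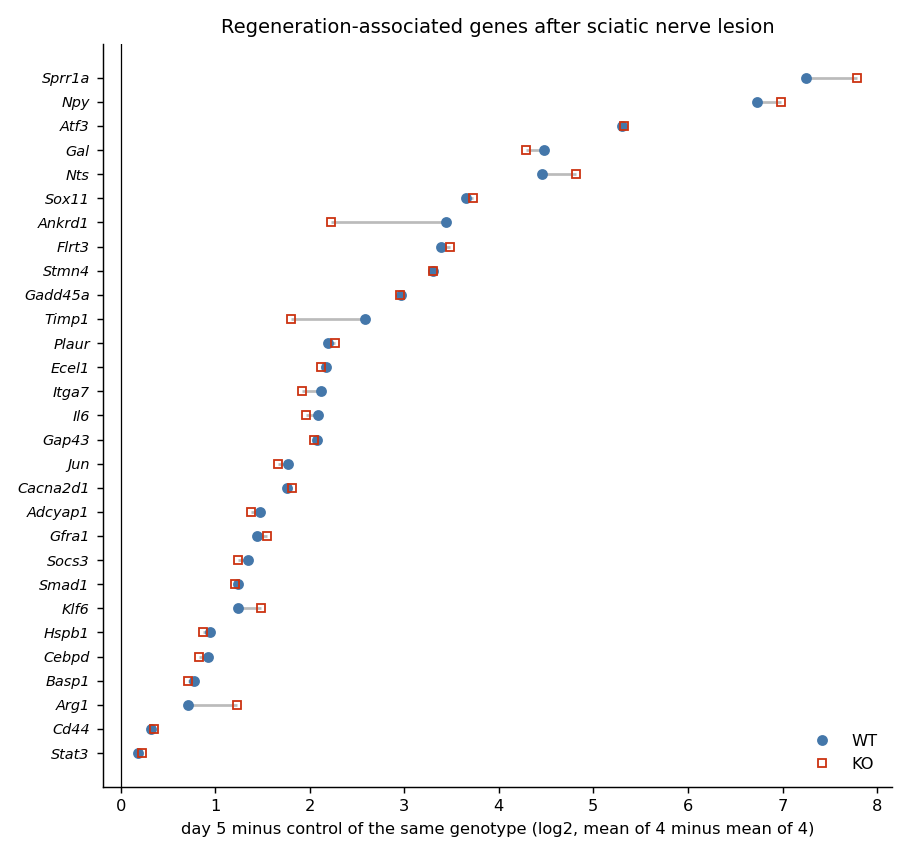
Change from control to day 5 (log2, x axis) of 29 regeneration-associated genes in WT (filled circles) and KO (open squares), each the mean of 4 day 5 samples minus the mean of 4 control samples. *Sprr1a* rose by 7.24 and 7.78 and *Gap43* by 2.08 and 2.05, and *Timp1* (2.58 and 1.80) and *Arg1* (0.71 and 1.23) are among the genes with the markers farther apart.

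Over the whole lesion response the genotypes were close. The 2366 measured probes that rose in WT from control to day 5 had a median KO minus WT of -0.04, and the 2731 that fell had a median of 0.09. As WT day 5 samples enter both the choice and the difference, the sets were also chosen by WT day 2 against control, which holds no day 5 sample. The 2002 probes that rose by then had a median of -0.01 at day 5 and the 1925 that fell a median of 0.07, beside 0.02 over all measured probes. With slide as a block the median over all measured probes was 0.00.

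The bZIP factors that share the NFIL3 site were all measured, 14 of 14, with 6 higher and 8 lower in KO and a median of -0.05. By their brightest probes none passed or had an unadjusted p under 0.05. Of the PAR factors *Dbp* differed by 0.21, *Tef* by 0.01 and *Hlf* by 0.06. *Creb1*, which was also used as a reference gene, differed by 0.12 (95% interval -0.13 to 0.36). *Cebpg*, a C/EBP protein, came nearest, with -0.25 (95% interval -0.52 to 0.02), and its other probes differed by 0.03 and -0.26.

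The list of circadian clock genes follows terms chosen on these same samples, so that its direction is no independent evidence. Of 21 such genes 17 were measured, 12 were higher and 5 lower in KO, with a median of 0.13, and none passed. *Bhlhe41*, a repressor of clock genes, read 6.63, 6.66, 6.74 and 6.58 in WT and from 6.74 to 7.34 in KO, a difference of 0.37 (95% interval 0.04 to 0.69). *Timeless*, a replication fork protein with a link to the clock, read 7.99, 8.38, 8.38 and 8.36 in WT and 8.24, 7.82, 7.97 and 7.83 in KO, a difference of -0.31 (95% interval -0.57 to -0.05). Replicate 1 of each genotype lay on the side of the other genotype, and a second *Timeless* probe differed by 0.18. Within slide 1 the median of the list was -0.06, and 10 of 17 were lower, so its direction was not the same on all slides.

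NFIL3 sites were then looked for in promoters, taken from RefSeq (GRCm38.p6) as 250 bases before to 50 after each start site. The core was searched as TTACGTAA and as TTATGTAA, both on either strand, and 347 of 32851 promoters held one, or 1.06%. Of the array genes with such a promoter 93 were measured, and 2 were higher and 1 lower in KO at an unadjusted p under 0.05, with a median of 0.04, where 10393 measured genes without the core had 80 higher, 52 lower and a median of 0.02. The windows below belong to those 3 genes and to *Per3*, the other clock gene with the core, and the core is in capitals.
Lrrtm3, chr10:64090279-64090326, minus strand: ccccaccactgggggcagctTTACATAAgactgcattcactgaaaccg
Gkn3, chr6:87388951-87388998, minus strand: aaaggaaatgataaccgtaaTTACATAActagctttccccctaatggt
Timeless, chr10:128237889-128237936, plus strand: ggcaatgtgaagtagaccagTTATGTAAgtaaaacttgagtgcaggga
Per3, distal, chr4:151044843-151044890, minus strand: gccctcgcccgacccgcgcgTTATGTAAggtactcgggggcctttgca
Per3, proximal, chr4:151044796-151044843, minus strand: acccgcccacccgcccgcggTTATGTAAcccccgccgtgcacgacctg
TTACATAA is TTATGTAA read from the opposite strand. In *Per3* the cores lie 197 and 150 bases before the start site, and of the cores shown that of *Gkn3* was nearest to its start site, at 35 bases. *Per3*, a period protein of the clock, read 5.20, 4.94, 5.20 and 5.64 in WT and 5.53, 5.80, 4.88 and 5.73 in KO, so that the groups overlapped, and it differed by 0.24 (unadjusted p = 0.213). *Lrrtm3*, a synaptic leucine-rich repeat protein, differed by 0.40 (unadjusted p = 0.0201) and by 0.47 at day 2. *Gkn3*, of the gastrokine family, read 7.40, 7.07, 6.84 and 7.31 in WT and 7.54, 8.48, 7.45 and 7.85 in KO, a difference of 0.68 (unadjusted p = 0.0371), and was at -0.10 at day 2. A match of letters does not show binding.

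Genes of immune cells were examined because NFIL3 is active in them. All 21 genes of the macrophage list rose from control to day 5 in both genotypes. Besides markers the list holds *Csf1*, which encodes a signal to macrophages. None differed between genotypes by the test and none had an unadjusted p under 0.05, but all 21 had a lower mean in KO, with a median of -0.17 and a range of -0.32 to -0.01, where 43.7% of all measured genes had a lower mean. The mean over the 21 genes was 10.06, 10.03, 9.87 and 10.21 in WT replicates 1 to 4 and 9.68, 10.04, 9.98 and 9.75 in KO replicates 1 to 4. KO replicates 1 and 4 were the lowest of all 8, and replicates 2 and 3 lay among the WT samples. Within slide 1 20 of 21 were lower, and with 1 sample left out 18 to 21 were, with a median between -0.23 and -0.09 (-0.11 with slide as a block). At day 2 20 of 21 were lower with a median of -0.21, and in control DRGs 11 with a median of -0.01. *Tyrobp*, an adaptor of myeloid receptors, had the smallest p, with -0.28 (95% interval -0.74 to 0.18).

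Of 15 measured chemokines and receptors 12 had a lower mean in KO, with a median of -0.07, and none passed. The median was -0.19 within slide 1 and -0.20 with slide as a block. *Ccl2*, which attracts monocytes, read 8.93, 8.76, 8.73 and 8.78 in WT and 8.07, 8.50, 8.38 and 8.42 in KO. All KO samples were lower, with a difference of -0.46 (SE 0.21, unadjusted p = 0.0371). *Ccl7*, of the same gene cluster, did not overlap between genotypes either, at -0.30. *Ccl4* differed by -0.74 (95% interval -1.49 to 0.01), *Ccl5* by -0.64 and *Cxcl9* by -0.70, each with groups that overlapped, and *Ccl8*, which rose by 4.38 in WT, differed by -0.04.

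NK cell genes were mostly too dim to be judged, since 6 of 15 were measured. Of these 5 had a lower and 1 a higher mean in KO, with a median of -0.11 and a range of -0.20 to 0.11. *Ncr1*, *Eomes* and *Klra8*, which define NK cells, were well above background in no day 5 sample. *Gzma*, a granule protease, was well above background in 1 KO and 2 WT samples. The T cell list had 7 of 11 measured, with a median of -0.04 and *Cd8b1*, a T cell coreceptor chain, at 0.27, though at -0.31 within slide 1. The B cell list had 5 of 7 measured, with a median of 0.30 and *Cd79a*, part of the B cell receptor, at 0.30. Of 10 cytokines linked to NFIL3 *Il6* (-0.15) and *Il13* (0.09) were measured, and the anti-inflammatory *Il10* was not. None of the measured genes of these lists passed or had an unadjusted p under 0.05.

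The 18 measured interferon response genes depended on the slide. Their median was -0.03 over all samples, -0.31 within slide 1, where all 18 were lower in KO, and 0.22 between KO on slide 2 and WT on slide 3, where 3 of 18 were lower. None passed, and *Oasl2*, an antiviral gene, had the smallest p, with -0.33 (95% interval -0.88 to 0.23). The 7 genes of MHC class II ranged from -0.08 to 0.08.

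Markers of the resident cells of the ganglion differed little. The 25 measured sensory neuron genes had a median of 0.02 and a range of -0.18 to 0.24. *Nefh*, a neurofilament, differed by -0.08, *Calca*, the peptide CGRP, by -0.04, and the sodium channel *Scn10a* by 0.00, and *Pvalb*, a marker of proprioceptors, had the smallest p at 0.22 (95% interval -0.25 to 0.69). In WT 12 of the 25 fell from control to day 5 and in KO 14 fell, where 11.5% of measured genes fell in WT and 10.1% in KO. The 14 satellite glia genes had a median of 0.04, with *Cdh19* at 0.20. The 13 Schwann cell genes had a median of 0.06, with *Pmp22* at 0.11, but all 13 were lower in KO within slide 1, with a median of -0.15, and 1 of 13 was lower between the other slides. Not one gene of these 3 lists had an unadjusted p under 0.05.

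**Figure D4:**
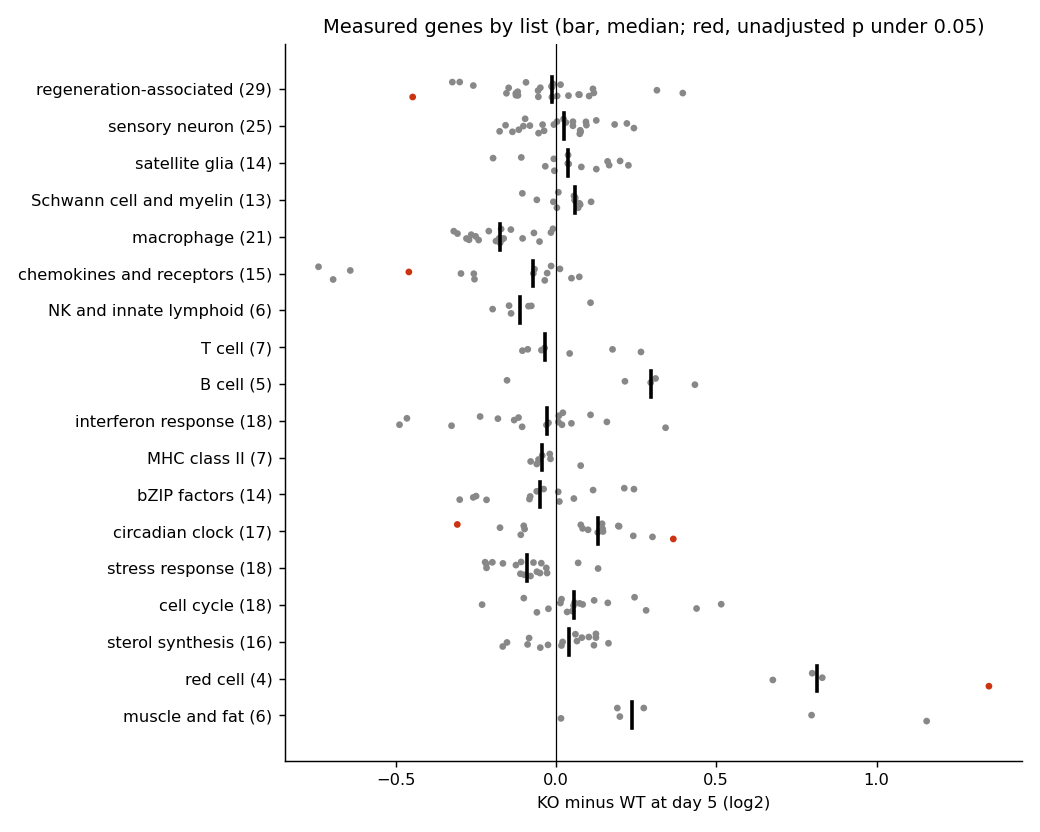
KO minus WT at day 5 (log2, x axis) for each measured gene of 18 lists (points), with the number measured after each name, the median as a black bar and genes with an unadjusted p under 0.05 in red. All 21 genes of the macrophage list lie below 0 and all 4 red cell genes above it, and no gene drawn here passed the adjusted threshold.

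Of 18 stress response genes 16 had a lower mean in KO, with a median of -0.09 and *Hspa1a*, a heat shock protein, at -0.20. Of 18 cell cycle genes 14 had a higher mean, with a median of 0.06 and *Top2a* at 0.44, while within slide 1 9 were higher. The 13 immediate early genes had a median of -0.05, with *Junb* at -0.23, and the 16 genes of sterol synthesis a median of 0.04, with *Cyp51* at -0.17. None of these passed or had an unadjusted p under 0.05. The list of general factors of RNA polymerase II was written with earlier results of these samples known. It is not the gene set of the study's RNA polymerase II terms, which concern DNA binding at regulatory regions and promoters. Of the 39 listed genes 38 were measured, with a median of 0.03. *Taf3* was at 0.29, though its other probes were at -0.34 and -0.43. Of 21 genes that the study singled out on these samples 20 were on the array and 6 measured. Their median was -0.04, and *Rfx7*, a transcription factor, was at 0.26. Among 917 olfactory receptor genes 118 were measured, with a median of -0.07, and 1 had an unadjusted p under 0.05, lower in KO, where 0.511% of all measured genes did. *Gapdh*, used as a reference, differed by -0.09 (95% interval -0.32 to 0.13). The Y-linked gene *Ddx3y* was between 8.98 and 9.21 in all 8 samples, which are labelled male.

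Genes of red cells and muscle varied between samples, without passing the test. *Slc4a1*, the anion exchanger of red cells, read 7.85, 7.24, 5.88 and 7.85 in WT and 8.11, 8.32, 7.86 and 9.94 in KO. The groups were just apart, with a difference of 1.35 (SE 0.58, unadjusted p = 0.0310, limma adjusted p = 1.00). All 4 measured red cell genes had a higher mean in KO, with a median of 0.82, and their mean level was 10.60 to 11.95 in WT samples and 11.64 to 12.98 in KO samples. The median was 0.16 within slide 1 and 1.47 between KO on slide 2 and WT on slide 3. At day 2 all 4 were lower in KO, with a median of -0.98. *Tnnt3*, a troponin of fast muscle, read 10.61 in KO replicate 1 and between 4.48 and 6.30 in the other KO samples, beside 4.91 to 6.27 in WT. *Acta1* and *Myh4* of skeletal muscle were also highest in that sample, at 10.62 and 12.81, and the difference for *Tnnt3* was 1.16 with it and -0.17 without it. A second *Tnnt3* probe differed by -0.05. The part of red cell or muscle RNA in other differences was not tested.

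The largest differences showed a split by slide. Among measured genes 67, or 0.394%, were over 1 log2 unit apart, 7 higher and 60 lower in KO. For 47 of the 60 all 8 slide 3 samples were above all other samples of the series, with a mean 1.63 to 3.95 above theirs. Within slide 1 these 47 had a median difference of -0.04 and a range of -0.46 to 0.19. Genotype and slide cannot be told apart between slides 2 and 3.

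The remaining large differences, named here after their values were seen, included *Sfrp4*, a secreted Wnt antagonist, at -1.35, with 10.93, 10.38, 9.64 and 10.74 in WT and 8.94, 9.59, 9.11 and 8.66 in KO. All KO samples were below all WT samples, and the difference was -1.26 within slide 1. *Wisp2*, a connective tissue growth factor relative, was at -1.03 with groups that did not overlap. In *Sfrp4* and *Wisp2* WT replicate 3 was the lowest WT sample and KO replicate 2 the highest KO sample. The same order held for *1500015O10Rik* (-1.53), *H19* (-1.09) and *Igf2* (-1.03), whose groups overlapped. *Retnla*, a product of alternatively activated macrophages, was at -1.06 with groups that overlapped and at -0.33 within slide 1. Of the 7 higher genes 4 belong to blood cells, namely *Slc4a1*, *Hemgn* of red cell precursors (1.86), *Prg2* of eosinophils (1.46) and *Mpo* of neutrophils (1.17). *Gp9* of platelets went the other way, at -1.03 with groups that overlapped. *Hemgn* read 0.45 in WT replicate 3 and 4.63 to 5.05 in the other WT samples. Without that sample *Hemgn* differed by 0.76, *Prg2* by 1.14, *Mpo* by 0.65 and *Slc4a1* by 0.91. KO replicate 4 was the highest of all day 5 samples in each of these 4 genes. Without it they differed by 1.39, 1.18, 0.80 and 0.89 in the same order. None of these passed, with a limma adjusted p of 1.00 for each.

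**Figure D5:**
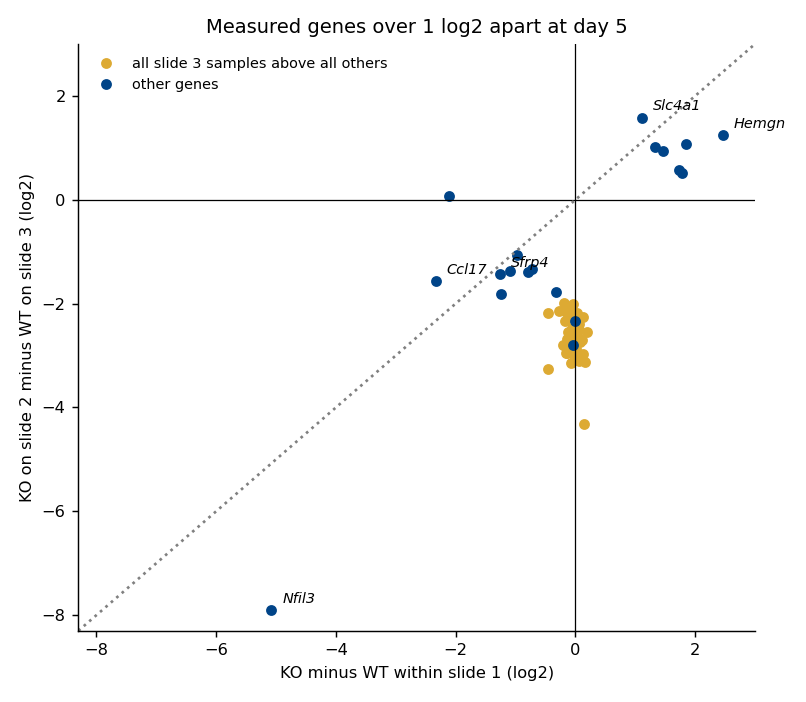
KO minus WT (log2) of the measured genes over 1 log2 unit apart at day 5, without Iigp1, which read -16.36 and -1.77 in the samples of 1 array and at least 8.91 in the others, within slide 1 (x axis) against KO on slide 2 minus WT on slide 3 (y axis). The 47 genes for which slide 3 stood apart (yellow) lie near 0 on the x axis, and *Nfil3* is at -5.08 and -7.90.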

How the data were processed

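Deposited files held the scanner intensities of 12 two-colour Agilent mouse arrays. Per the labels and the file headers, RNA of 24 samples was labelled with Cy3 or Cy5, hybridised 2 samples to an array, scanned and extracted per spot as mean and median foreground and median background intensity by the authors, with no normalization across arrays in these columns. The columns were assigned through the array and channel that each sample's description names. Here the median background was taken from the mean foreground (Edwards method), log2 values were quantile normalized over all 24 channels, outlier spots were left out and spots of a probe were averaged, leaving 41174 probes with 417 missing values. Using limma 3.58.1 in R 4.3.3, the 24 samples were modelled by the means of their 6 groups, and p-values were adjusted by Benjamini-Hochberg over all probes, with a threshold of 0.05. Unadjusted p-values and 95% intervals are from the same fit. The number of samples limits the precision. The p-values set each difference against the spread within the 6 groups, taken over all 24 samples and moderated by limma. Positions are those of the array annotation (mm9), and promoters those of RefSeq (GRCm38.p6). Genes named are the neighbours of Nfil3, those that passed, the 8 measured ones with the smallest p in each direction, the one with the smallest p of each list, and Gap43, Arg1, Atf3, Sprr1a, Gapdh and Creb1; the others were named after their values were seen. The members and lists were chosen with earlier results of these data known. Alternatives covered the background, scaling, filters, dye, slide, array and replicate blocks and single samples left out. The choice of lesion sets by day 2, the values by slide and with single samples left out for lists and large differences, and the *Nfil3* lesion change without 1 control sample were added after seeing the data. The scripts were tested on simulated data.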

Additional observations from a re-analysis of the deposited data

Results flagged for a closer look

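Among 100 groups of 4 samples, from 50 probes of named genes, 3 had a sample far from the other 3, where chance gives about 1 in 20. *Timp1* was 11.2 in WT replicate 1 and between 10.79 and 10.85 in the other WT samples. *Timeless* was 7.99 in WT replicate 1 and between 8.36 and 8.38 in the others. *Adamts12* was 4.03 in KO replicate 4 and between 4.13 and 4.14 in the others. No gene passed the test of whether KO minus WT differed between day 5 and control.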

How the results depend on the processing

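The 4 genes that passed became 2 without background correction, with normexp, with median foreground, with loess, with only the probes kept that were above background in 4 or more of the 8 samples, with probes of a gene averaged and with an intensity trend. They became 1 with processed signals and 0 with normalization over the day 5 channels, with the day 5 samples alone and within slide 1, where 1639, 1647 and 1282 genes had an unadjusted p under 0.05 by limma. With 1 sample left out the count was between 1 and 4, and the genes were not always among those 4. *AK088968* passed without KO replicate 2, *1500010J02Rik* without KO replicate 4, *D230018H15Rik* without WT replicate 2 and *AK042564* without WT replicate 3. The brighter *Nfil3* probe kept its direction throughout and passed in each leave-one-out fit (-6.95 to -5.96), but not with processed signals (-7.23), normalization over the day 5 channels (-6.50), the day 5 samples alone (-6.49) or slide 1 alone (-5.08). Whether the replicate numbers pair the samples is not given in the sources used here. Same-numbered KO and WT samples correlated by -0.04 to 0.24 in their deviations, and differently numbered ones by -0.36 to 0.32. These ranges do not settle whether the numbers are pairs. With the replicate block 2 genes passed, *Nfil3* and *Auh*. Of 1080 values of other named genes 19 changed sign, none of them past the threshold. *Sprr1a* was 0.077 with processed signals, 0.026 with loess and 0.0023 with normalization over the day 5 channels, and -0.12 to 0.064 with 1 sample left out. With slide as a block *Cd8b1* was -0.0037, E130119H09Rik -0.00064, *Gap43* 0.083 and *Ror2* 0.024. Within slide 1 *Cd8b1* was -0.31, *Pmp22* -0.021, *Rfx7* -0.020 and *Ror2* 0.11. With 1 sample left out *Ror2* was -0.11 to 0.086, *Sptlc1* -0.11 to 0.030 and *Tnnt3* -0.17 (without KO replicate 1) to 1.87. The causes were not tested. Signals near background limit *Il12b*, *Apob* and most NK cell genes.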
